A study of Mus musculus with 2 samples.

Results

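Kinesins, kinetochore proteins and spindle regulators were examined in mouse hematopoietic stem cells (HSCs) sorted by a reporter of Satb1, which encodes a chromatin-organizing protein of lymphoid cells. The genes were all those listed under a Kif or Kifc symbol with a digit or under Cenp with a single letter, and 24 further mitotic genes named one by one, 84 of the 23210 genes in the deposited tables. They comprised 41 kinesins, 18 Cenp-named genes, the 24 named genes and the pseudogene Kif4-ps. Both groups were CD150-positive, Flt3-negative LSK cells (bone marrow progenitors that lack lineage markers and carry Sca-1 and Kit) that carried a Satb1-Tomato reporter; Tomato-positive cells are called SATB1+ HSCs (SATB1-positive in the plots) and Tomato-negative cells SATB1- HSCs (SATB1-negative). The labels give no treatment, age, sex, strain or number of animals, nor whether either library pooled animals. Each group was 1 library, so the differences have no replicate check, no test between groups was possible and no p-value was computed. Values are FPKM (fragments scaled to the kilobases of transcript and to the total of mapped fragments), a scale per transcript length on which genes can be compared with each other.

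Kinesins are motor proteins that walk along or take apart microtubules. Some build and move the mitotic spindle, and others carry vesicles and organelles in cells that are not dividing. At mitosis the kinetochore assembles on centromere chromatin: an inner layer stays on the centromere through much of the cell cycle, and an outer layer, recruited at mitosis, grips spindle microtubules and carries the checkpoint that holds anaphase back until every chromosome is attached. Genes for most of these proteins are transcribed late in the cell cycle, and adult HSCs are known to be largely quiescent. In sorted bulk cells, a larger share of dividing cells and more transcript per dividing cell cannot be told apart.

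Most genes of cell division were higher in SATB1+ HSCs. Of the 20 kinesins classed as transport, 11 were higher and 9 lower, but 16 of the 20 were below 5 FPKM in both libraries. Of the 84 genes, 54 were classed as mitotic and 30 were not. The 30 include Kif2a and Cenpv, which have roles at the spindle poles or midzone beside others. Among the 54 mitotic genes, 52 had a higher FPKM in SATB1+ HSCs, Cenpc1 was minimally lower and Kif2b was listed at 0 in both libraries. Of the 51 that reached 5 FPKM in either library, 50 were higher in SATB1+ HSCs, against 50% (4653) of all 9308 genes at that level; Kif2b, Kif14 and Kifc5b did not reach it. Among the 51, 39 had a log2((SATB1+ FPKM + 1)/(SATB1- FPKM + 1)), called the log2 ratio from here on, of at least 0.32, which is 25% higher in SATB1+ HSCs. These are called past the threshold; 0 mitotic genes were past it in the lower direction, at -0.32 or less. That 0 depends on the classing, since Kif2a and Cenpv were the 2 genes of the 84 with 5 FPKM that were past it as lower. Over all 9308 genes, 11.1% were past the threshold as higher and 10.2% as lower. The median log2 ratio was 0.42 over the 51 mitotic genes and -0.00017 over the 9308 genes. Above 1.5-fold there were 7 mitotic genes, against 3.80% of all genes, and 0 reached 2-fold, which 1.31% of all genes did as higher and 0.688% as lower. The differences were therefore small in size and shared by most of the mitotic genes.

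Of 27 kinesins that are not mitotic (20 of transport, 7 of other or mixed function), 15 had a higher and 12 a lower FPKM in SATB1+ HSCs. Only Kif2a, Kif3a, Kif5b, Kif13a and Kif16b, 5 genes, reached 5 FPKM, of which 0 were past the threshold as higher and 1 as lower. The median log2 ratio of the 5 genes was 0.10. Without Kif2a, the 4 transport kinesins at that level had a median of 0.15, with 3 higher and 1 lower in SATB1+ HSCs. Over the 17 non-mitotic kinesins with at least 1 FPKM the median was 0.011, with 3 past the threshold as higher and 4 as lower. The share of all genes past the threshold at this minimum was not computed, so these counts cannot be set against it. The plot of cumulative shares shows all genes and the mitotic genes from 5 FPKM and these 17 kinesins from 1 FPKM, so the minimum differs between its lines.

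**Figure D1:**
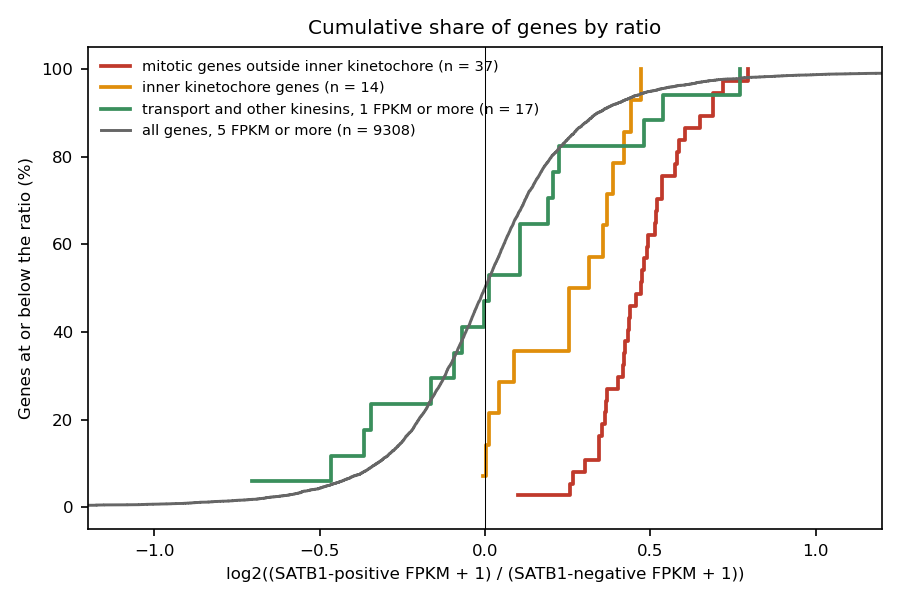
Cumulative share of genes (vertical axis, percent) at or below each log2 ratio of SATB1+ to SATB1- HSCs (horizontal axis), 1 line per group of genes and 1 library per cell group. The lines of all genes and of mitotic genes hold those with at least 5 FPKM in either library. The line of mitotic genes outside the inner kinetochore (median 0.47) lies to the right of all genes over most of its length, that of inner kinetochore genes starts near 0 and has a median of 0.28, and that of the 17 transport and other kinesins with at least 1 FPKM lies around 0.

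The sort and the libraries were checked on a few genes. Satb1 was at 8.26 FPKM in SATB1+ and 2.37 FPKM in SATB1- HSCs, in the direction of the reporter. Kit was at 286 FPKM in SATB1+ and 318 FPKM in SATB1- HSCs, Slamf1, which encodes CD150, at 11.9 FPKM in SATB1+ and 15.97 FPKM in SATB1- HSCs, and Flt3 at 27.1 FPKM in SATB1+ and 17.3 FPKM in SATB1- HSCs, although both fractions were gated as Flt3-negative. All 8 listed stem cell markers, among them Mecom and Procr, were above 6 FPKM in both libraries. The depth was estimated from the steps of low FPKM values at 26680000 fragments for SATB1+ and 34920000 for SATB1- HSCs. Folds below are ratios of FPKM, SATB1+ over SATB1-, each with a 95% interval from the estimated fragments. The interval addresses counting error only, not the spread between animals or sorts, and can be too narrow even for that, since PCR copies are not independent molecules. It lay above 1 for 46 of the 51 mitotic genes and below 1 for 0, against 33.8% above 1 and 32.2% below 1 among 9190 genes with a length and at least 5 FPKM. Of the 5 non-mitotic kinesins with 5 FPKM, the interval lay above 1 for 3, below 1 for 1 and held 1 for 1.

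Mitotic kinesins were higher in SATB1+ HSCs in all 13 members with any signal, although the interval of Kifc5b, at a ratio of 1.13 (0.855 to 1.49), held 1. Kif11, the bipolar motor that slides spindle poles apart, had the highest level of any kinesin examined, at 77.0 FPKM in SATB1+ and 56.7 FPKM in SATB1- HSCs. This was 1.36-fold (1.32 to 1.397) higher, on about 9473 and 9132 fragments. The chromokinesin Kif4, which sits on chromosome arms and at the central spindle, had the highest fold of the mitotic kinesins with 5 FPKM, 1.48-fold (1.401 to 1.57), at 20.8 FPKM in SATB1+ and 14.0 FPKM in SATB1- HSCs. Kif15, a second bipolar spindle motor, was at 19.99 FPKM in SATB1+ and 13.9 FPKM in SATB1- HSCs and Kif2c, a microtubule depolymerase of the centromere that frees wrongly attached chromosomes, at 23.7 FPKM in SATB1+ and 17.3 FPKM in SATB1- HSCs. The folds were 1.44-fold (1.36 to 1.52) for Kif15 and 1.38-fold (1.27 to 1.48) for Kif2c, with intervals that overlapped that of Kif11, whereas the interval of Kif4 lay just above it.

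Motors of chromosome alignment and of the spindle midzone followed with slightly smaller folds. Kif18a, which damps chromosome oscillations at the metaphase plate, was at 16.9 FPKM in SATB1+ and 12.9 FPKM in SATB1- HSCs, and its relative Kif18b, active on astral microtubules, at 27.7 FPKM in SATB1+ and 21.6 FPKM in SATB1- HSCs. Kif20a, needed for cytokinesis, was at 43.0 FPKM in SATB1+ and 31.7 FPKM in SATB1- HSCs. Its relative Kif20b, also of late mitosis, was at 21.6 FPKM in SATB1+ and 16.5 FPKM in SATB1- HSCs. The intervals of these 4 motors overlapped one another and that of Kif11. Among the mitotic kinesins with 5 FPKM, the lowest folds belonged to Kif22 and Kif23. Kif22, another chromokinesin, was at 52.5 FPKM in SATB1+ and 43.5 FPKM in SATB1- HSCs, 1.21-fold (1.15 to 1.27) higher. Kif23, the motor subunit of centralspindlin at the midzone, was at 48.2 FPKM in SATB1+ and 40.2 FPKM in SATB1- HSCs, 1.199-fold (1.15 to 1.252) higher. Of the 11 mitotic kinesins with 5 FPKM, 9 were past the threshold as higher, all but Kif22 and Kif23, and 5 were with a pseudocount of 5 in place of 1.

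Kifc1, the minus-end-directed motor that focuses spindle poles, was at 8.52 FPKM in SATB1+ and 5.85 FPKM in SATB1- HSCs. A near-identical copy, Kifc5b, was at 1.54 FPKM in SATB1+ and 1.37 FPKM in SATB1- HSCs, and 47.6% of the 50-base words of the Kifc1 transcript occur in transcripts of other genes, so the division of reads between the copies is uncertain. Kif14, a midbody motor, was low at 1.42 FPKM in SATB1+ and 0.960 FPKM in SATB1- HSCs. Kif4-ps, a pseudogene of Kif4, was at 0.324 FPKM in SATB1+ and 0.0582 FPKM in SATB1- HSCs, below 1 FPKM in both libraries. Exons of Kif4, Kif18a, Kif20a and Kif22 overlap an exon of a gene on the opposite strand, and the strand setting of the counting is not known here.

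**Figure D2:**
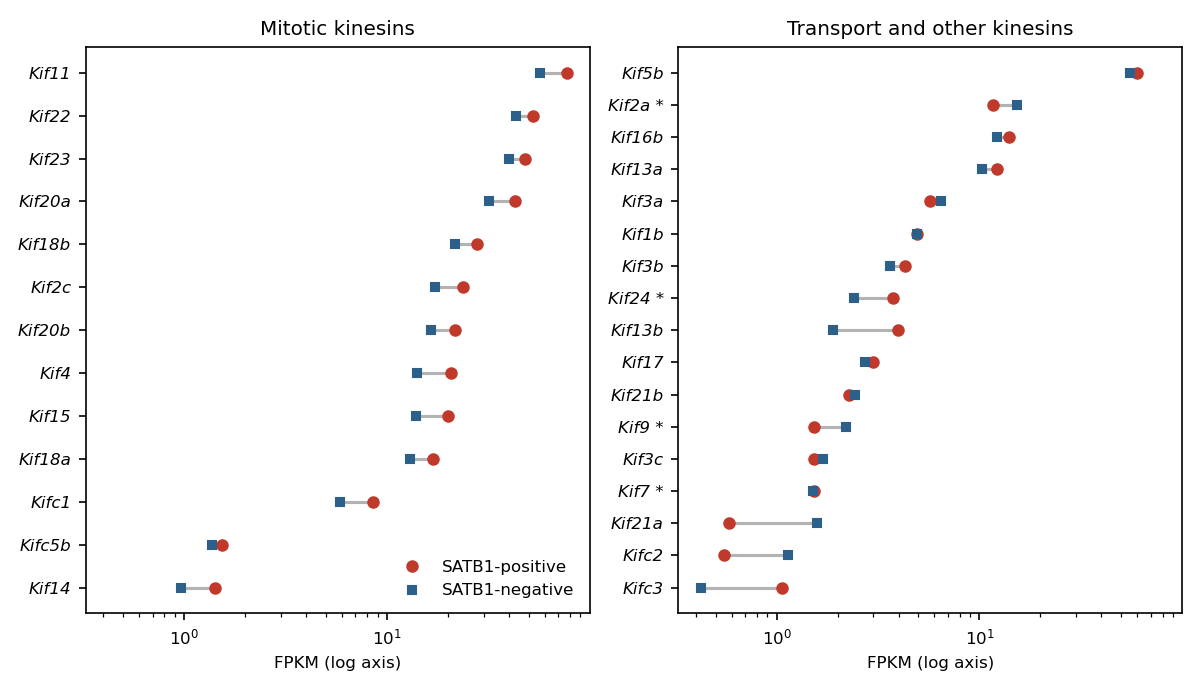
FPKM (log axis) of kinesins with at least 1 FPKM in either library, SATB1+ HSCs as circles and SATB1- HSCs as squares, 1 library each; an asterisk marks kinesins of other or mixed function. Every mitotic kinesin has its circle to the right of its square, whereas transport and other kinesins have circles on both sides.

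Transport kinesins were mostly low. Kif5b, the ubiquitous heavy chain of conventional kinesin, was the exception at 59.7 FPKM in SATB1+ and 55.5 FPKM in SATB1- HSCs, and its ratio of 1.08 (1.05 to 1.11) was under that of every mitotic kinesin with 5 FPKM. Kif16b, a motor of early endosomes, was at 14.1 FPKM in SATB1+ and 12.2 FPKM in SATB1- HSCs, and Kif13a, a motor of recycling endosomes and melanosomes, at 12.2 FPKM in SATB1+ and 10.3 FPKM in SATB1- HSCs. Kif3a, a subunit of the heterotrimeric kinesin of intraflagellar transport, was at 5.68 FPKM in SATB1+ and 6.48 FPKM in SATB1- HSCs. None of these 4 genes was past the threshold in either direction. The ratios of Kif13a, 1.18 (1.12 to 1.26), and Kif16b, 1.15 (1.09 to 1.22), had intervals that overlapped those of the mitotic Kif22 and Kif23.

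A further 9 transport kinesins lay between 1 and 5 FPKM in the higher library, of which 4 were higher in SATB1+ HSCs; of 2565 genes in this range 45.5% were higher and 54.5% lower. Kif1b, a motor of mitochondria and synaptic vesicle precursors, was at 4.90 FPKM in SATB1+ and 4.91 FPKM in SATB1- HSCs, and Kif3b, the partner of Kif3a, at 4.31 FPKM in SATB1+ and 3.60 FPKM in SATB1- HSCs. Kif17, Kif21b and Kif3c were between 1.53 and 2.998 FPKM in SATB1+ HSCs and between 1.697 and 2.71 FPKM in SATB1- HSCs. These 5 genes differed little between the libraries.

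The other 4 lay farther apart. Kif13b, a relative of Kif13a, was at 3.95 FPKM in SATB1+ HSCs against 1.90 FPKM in SATB1- HSCs, a ratio of 2.08 (1.81 to 2.37), and Kifc3, a minus-end motor of cell junctions, at 1.07 FPKM in SATB1+ HSCs against 0.425 FPKM in SATB1- HSCs, a ratio of 2.51 (1.64 to 3.99). Kif21a was lower in SATB1+ HSCs, at 0.584 FPKM in SATB1+ and 1.58 FPKM in SATB1- HSCs, 2.71-fold (2.14 to 3.47) lower, and Kifc2 was at 0.547 FPKM in SATB1+ and 1.14 FPKM in SATB1- HSCs. The values of Kif21a rest on about 90 and 320 fragments and those of Kifc3 on 64 and 33. Kifc2, Kifc3 and Kif5b also overlap exons of genes on the opposite strand. The 7 remaining genes classed here as transport kinesins, Kif1a, Kif1c, Kif5a, Kif5c, Kif12, Kif26a and Kif26b, were below 1 FPKM in both libraries, among them neuronal motors such as Kif1a and Kif5a. Kif26a was listed at 0 in SATB1- HSCs. Kif26b was at 0.208 FPKM in SATB1+ and 0.0439 FPKM in SATB1- HSCs, a ratio of 4.73 (2.85 to 7.99) on about 75 and 21 fragments. It has an exon that overlaps Gm16564 on the opposite strand.

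Kinesins of other or mixed function included Kif2a, the only non-mitotic kinesin with 5 FPKM past the threshold, which it was not with a pseudocount of 5. Kif2a, a depolymerase of neurons, cilia and spindle poles, was at 11.7 FPKM in SATB1+ and 15.3 FPKM in SATB1- HSCs, 1.31-fold (1.22 to 1.42) lower in SATB1+ HSCs, with an exon that overlaps Dimt1 on the opposite strand. Its close relative Kif2c, described above, was on the other side of 1. Kif24, which acts at centrioles and cilia, was at 3.74 FPKM in SATB1+ and 2.40 FPKM in SATB1- HSCs, Kif9, a motor of cilia and sperm flagella, at 1.52 FPKM in SATB1+ and 2.205 FPKM in SATB1- HSCs, and Kif7, a regulator of Hedgehog signalling at the cilium tip, at 1.53 FPKM in SATB1+ and 1.51 FPKM in SATB1- HSCs. Kif6, Kif19a and Kif27 were below 1 FPKM in both libraries.

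Inner kinetochore and centromere genes under a Cenp symbol spread from a ratio near 1 up to that of the mitotic kinesins. Of the 14, 6 were past the threshold as higher in SATB1+ HSCs and 8 were within it, with a median log2 ratio of 0.28. Genes listed under older symbols are not among the 14. Such a gene is Stra13, now called Cenpx, at a ratio of 0.943 (0.852 to 1.04), counted with other kinetochore genes below. Cenpa, the histone H3 variant that marks the centromere, had the highest level at 109 FPKM in SATB1+ and 84.8 FPKM in SATB1- HSCs, 1.28-fold (1.13 to 1.46). Cenpn, which reads the Cenpa nucleosome, was at 33.6 FPKM in SATB1+ and 23.9 FPKM in SATB1- HSCs, and its partner Cenpl at 27.1 FPKM in SATB1+ and 19.97 FPKM in SATB1- HSCs. Cenph was at 34.6 FPKM in SATB1+ and 25.2 FPKM in SATB1- HSCs, Cenpo at 8.76 FPKM in SATB1+ and 6.47 FPKM in SATB1- HSCs, and Cenpb, which binds a short motif in centromere satellite DNA, at 33.4 FPKM in SATB1+ and 25.6 FPKM in SATB1- HSCs. These 6 genes had ratios between 1.28 and 1.404.

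Near 1 lay Cenpc1, the scaffold on which the other inner kinetochore proteins assemble, at 16.7 FPKM in SATB1+ and 16.8 FPKM in SATB1- HSCs, a ratio of 0.996 (0.927 to 1.07). Cenpt, the other main bridge to the outer kinetochore, was at 25.1 FPKM in SATB1+ and 25.01 FPKM in SATB1- HSCs, a ratio of 1.002 (0.925 to 1.09), and Cenpq at 55.01 FPKM in SATB1+ and 54.6 FPKM in SATB1- HSCs, a ratio of 1.01 (0.957 to 1.06). Cenpw, the histone-fold partner of Cenpt, was at 7.21 FPKM in SATB1+ and 6.97 FPKM in SATB1- HSCs, and Cenpm at 31.9 FPKM in SATB1+ and 29.9 FPKM in SATB1- HSCs. For these 5 genes the counting interval held 1; they were the only 5 of the 51 mitotic genes of which that was so. The other 3 within the threshold had intervals above 1, and Cenpk passed it with a pseudocount of 0.1; these were Cenpk at 22.5 FPKM in SATB1+ and 17.9 FPKM in SATB1- HSCs, Cenpi at 22.0 FPKM in SATB1+ and 18.3 FPKM in SATB1- HSCs and Cenpp at 29.4 FPKM in SATB1+ and 24.5 FPKM in SATB1- HSCs. Of the 8 genes within the threshold, Cenpk, Cenpp, Cenpq and Cenpt have an exon overlapping a gene on the opposite strand, and Cenpc1, Cenpi, Cenpm and Cenpw do not.

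Outer kinetochore genes were past the threshold as higher in 6 of 6. The Ndc80 complex, the arm that binds microtubules, has 4 subunits, and their levels lay at a pair of heights. Spc24 and Spc25, which dock the complex on the inner kinetochore, were the higher pair, Spc24 at 75.8 FPKM in SATB1+ and 57.2 FPKM in SATB1- HSCs and Spc25 at 74.8 FPKM in SATB1+ and 53.7 FPKM in SATB1- HSCs. Ndc80 and Nuf2, which make up the microtubule-binding heads, were the lower pair, Ndc80 at 35.7 FPKM in SATB1+ and 26.5 FPKM in SATB1- HSCs and Nuf2 at 31.2 FPKM in SATB1+ and 21.4 FPKM in SATB1- HSCs. The 4 folds were close, from 1.33-fold (1.251 to 1.405) for Spc24 to 1.46-fold (1.36 to 1.56) for Nuf2. Cenpe, the corona motor that carries chromosomes to the spindle equator, was 1.70-fold (1.62 to 1.78) higher, more than the 4 subunits, at 20.2 FPKM in SATB1+ and 11.9 FPKM in SATB1- HSCs. Cenpf, a large coiled-coil protein of the corona, was at 14.6 FPKM in SATB1+ and 9.38 FPKM in SATB1- HSCs, 1.55-fold (1.49 to 1.63). Only 2.39% of the 9308 genes had a log2 ratio above that of Cenpe.

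Spindle checkpoint genes were uneven. Bub1, the kinase that recruits the checkpoint to the kinetochore, was 1.61-fold (1.505 to 1.72) higher, at 22.4 FPKM in SATB1+ and 13.9 FPKM in SATB1- HSCs. Bub1b, which encodes BubR1, was at 50.5 FPKM in SATB1+ and 39.3 FPKM in SATB1- HSCs, Mad2l1, the inhibitor of the anaphase-promoting complex activator, at 52.8 FPKM in SATB1+ and 40.6 FPKM in SATB1- HSCs, and the checkpoint kinase Ttk at 17.8 FPKM in SATB1+ and 14.3 FPKM in SATB1- HSCs, with folds between 1.248 and 1.300; Ttk was just within the threshold. Bub3, the adaptor that holds Bub1 and BubR1, had the highest level of the 5 and the smallest fold of all mitotic genes outside the inner kinetochore, 1.07-fold (1.03 to 1.11), at 99.4 FPKM in SATB1+ and 92.7 FPKM in SATB1- HSCs. The intervals of Bub1 and Bub3 did not overlap those of the other 3 genes.

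Chromosomal passenger genes were higher in SATB1+ HSCs, 3 of 3 past the threshold. Incenp, the scaffold of the complex, was 1.63-fold (1.56 to 1.71) higher, at 52.2 FPKM in SATB1+ and 32.02 FPKM in SATB1- HSCs. Aurkb, its kinase, was at 72.1 FPKM in SATB1+ and 47.8 FPKM in SATB1- HSCs, 1.51-fold (1.43 to 1.58), and Birc5, which encodes survivin, at 94.6 FPKM in SATB1+ and 69.9 FPKM in SATB1- HSCs, 1.35-fold (1.27 to 1.44). The smallest of these folds was thus that of the most abundant transcript. Among the spindle kinases, Plk1 was at 41.6 FPKM in SATB1+ and 27.0 FPKM in SATB1- HSCs, 1.54-fold (1.45 to 1.64), and Aurka at 31.2 FPKM in SATB1+ and 21.9 FPKM in SATB1- HSCs. Tpx2, which activates the Aurka kinase on spindle microtubules, was at 50.9 FPKM in SATB1+ and 36.2 FPKM in SATB1- HSCs, a ratio of 1.41 (1.35 to 1.46) beside 1.42 (1.32 to 1.54) for Aurka.

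The drivers of mitotic entry and exit were also higher. Cdk1, the mitotic kinase, was at 49.3 FPKM in SATB1+ and 30.2 FPKM in SATB1- HSCs, 1.63-fold (1.57 to 1.70), a larger fold than those of its cyclins. Ccnb1 was at 100.1 FPKM in SATB1+ and 68.7 FPKM in SATB1- HSCs, 1.46-fold (1.404 to 1.51), with 42.1% of its 50-base words shared with other transcripts, mainly of the pseudogene Ccnb1-ps, and Ccnb2 was at 121 FPKM in SATB1+ and 95.3 FPKM in SATB1- HSCs, 1.27-fold (1.22 to 1.33). Ube2c, the ubiquitin-conjugating enzyme of the anaphase-promoting complex, had the highest level of all 84 genes, at 207 FPKM in SATB1+ and 145 FPKM in SATB1- HSCs, and Cdc20, the activator of that complex, was at 65.2 FPKM in SATB1+ and 48.5 FPKM in SATB1- HSCs. Ube2c was 1.43-fold (1.37 to 1.495) and Cdc20 1.35-fold (1.28 to 1.42) higher.

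Mki67, which coats mitotic chromosomes and is widely used to mark proliferating cells, had the largest fold of the mitotic genes with 5 FPKM, 1.75-fold (1.72 to 1.79) on about 21408 and 15999 fragments, at 81.4 FPKM in SATB1+ and 46.5 FPKM in SATB1- HSCs. Of the 9308 genes, 1.97% had a higher log2 ratio. Top2a, which untangles DNA before anaphase, was at 191 FPKM in SATB1+ and 133 FPKM in SATB1- HSCs, 1.43-fold (1.41 to 1.46). For cytokinesis, Prc1, the bundler of midzone microtubules, was at 103 FPKM in SATB1+ and 74.9 FPKM in SATB1- HSCs, and Anln, a scaffold of the contractile ring, at 14.1 FPKM in SATB1+ and 9.15 FPKM in SATB1- HSCs, with ratios of 1.38 (1.33 to 1.42) for Prc1 and 1.54 (1.44 to 1.66) for Anln. The 7 genes above 1.5-fold on the scale of FPKM + 1 were Mki67, Cdk1, Cenpe, Incenp, Bub1, Plk1 and Cenpf. Of the mitotic genes, 15 have an exon that overlaps an exon of another gene, among them Ube2c (Tnnc2), Cdc20 (Elovl1), Prc1 (Rccd1) and Plk1 (Gm44985) on the opposite strand and Cenpb (Spef1) and Top2a (Gm23451) on the same strand, so that their values are less certain. Without these 15 and the genes with over 20% of their 50-base words in other genes (Kifc1, Kifc5b and Ccnb1), 27 mitotic genes were past the threshold as higher.

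**Figure D3:**
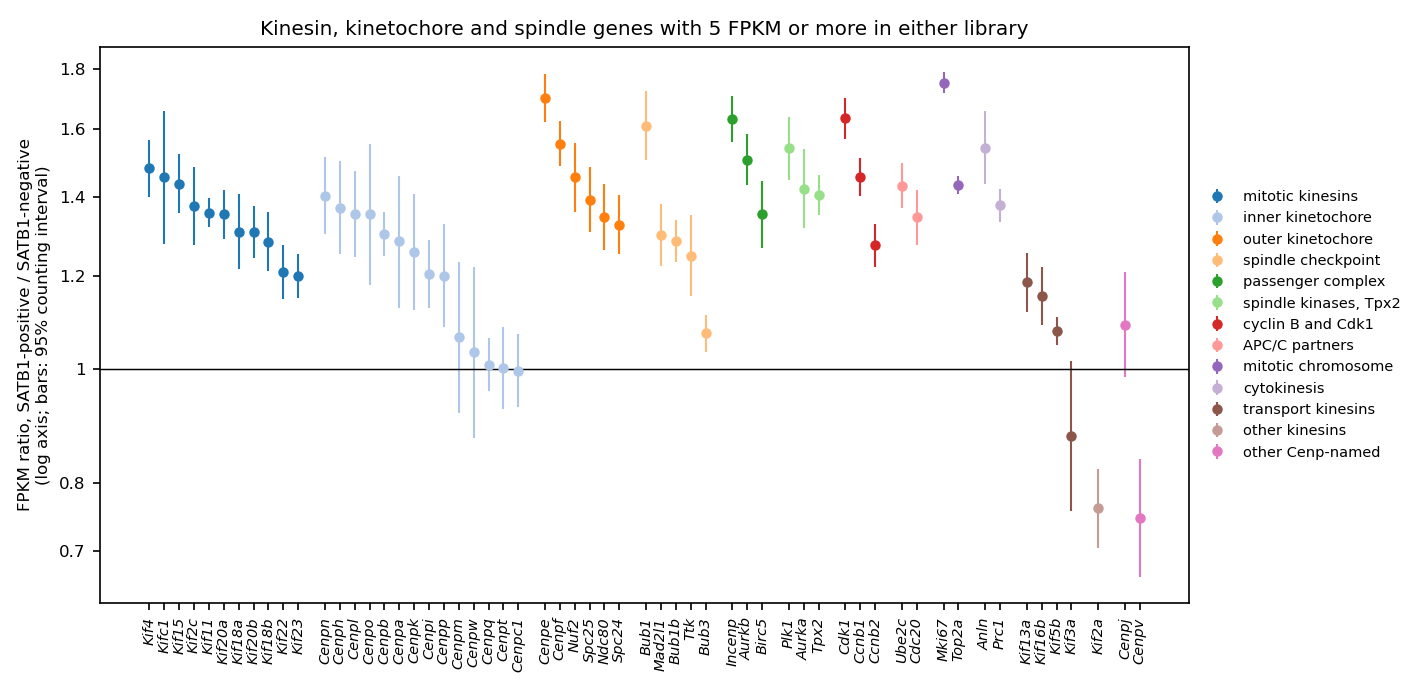
FPKM ratio of SATB1+ to SATB1- HSCs (log axis) for the 58 genes that reached 5 FPKM, coloured by role; bars are 95% intervals for counting error only. Mki67 is highest, the 5 inner kinetochore genes from Cenpm to Cenpc1 have intervals that hold 1, and Kif2a and Cenpv lie below 0.8.

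A pair of Cenp-named genes with other roles differed from the kinetochore genes. Cenpv, a microtubule-associated protein of the centromere region and midzone, was at 20.9 FPKM in SATB1+ and 28.0 FPKM in SATB1- HSCs, 1.34-fold (1.19 to 1.505) lower in SATB1+ HSCs. Cenpj, which sets centriole length, was at 6.21 FPKM in SATB1+ and 5.70 FPKM in SATB1- HSCs, a ratio of 1.09 (0.984 to 1.21), and its interval held 1.

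Among mitotic genes the log2 ratio moved with transcript length more than with level. Across the 51 mitotic genes, Spearman's rho of the log2 ratio was 0.045 against mean FPKM and 0.39 against transcript length. Across 9212 genes with 5 FPKM and an annotated length it was -0.0029 and 0.18; the genes share both libraries, so these are descriptions. In genes with transcripts of 1000 to 2000 bases the median log2 ratio was 0.40 over 15 mitotic genes and -0.04 over all genes. From 4000 to 6000 bases it was 0.49 over 9 mitotic genes and 0.05 over all genes. With the median of each gene's length class taken off, 38 mitotic genes were past the threshold as higher. Over the 6 length classes the median of mitotic genes ran from 0.35 to 0.72, and was highest over 3 genes longer than 6000 bases.

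Promoters of the mitotic genes shared sequence features that their choice did not use. Late cell cycle genes are known to carry a cell cycle homology region (CHR), bound by the DREAM and MuvB complexes, often near CCAAT boxes bound by NF-Y. RefSeq promoters on GRCm38.p6, from 250 bases before to 50 after the start, matched 71 of the 84 genes by symbol, and they were searched on both strands. The letters searched were CCAAT for the NF-Y box, TTTGAA or TTCGAA for the CHR, and TTTGGCGC, TTTCCCGC, TTTCGCGC or TTTGCCGC for E2F. CCAAT matches on opposite strands can overlap, and a match is a description, not a bound site. The upstream 250 bases are shown for 5 mitotic genes that hold both motifs upstream of the start, and for 3 genes that hold neither and differ in ratio: Cenpt at 1.002 (0.925 to 1.09), Kif16b at 1.15 (1.09 to 1.22) and Nuf2 at 1.46 (1.36 to 1.56). Capitals mark the CCAAT and CHR matches. The regions are, for Mki67, chr7:135716380-135716629 on the minus strand, for Cdk1, chr10:69352913-69353162 on the minus strand, for Ube2c, chr2:164769679-164769928 on the plus strand, for Cdc20, chr4:118437344-118437593 on the minus strand, for Kif11, chr19:37376132-37376381 on the plus strand, for Cenpt, chr8:105852009-105852258 on the minus strand, for Kif16b, chr2:142901465-142901714 on the minus strand, and for Nuf2, chr1:169531465-169531714 on the minus strand.
Mki67: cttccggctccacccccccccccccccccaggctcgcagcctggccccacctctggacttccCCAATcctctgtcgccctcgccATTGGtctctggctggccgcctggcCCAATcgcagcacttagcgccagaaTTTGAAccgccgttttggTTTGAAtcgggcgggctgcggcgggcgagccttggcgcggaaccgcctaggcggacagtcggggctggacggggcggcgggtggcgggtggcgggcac
Cdk1: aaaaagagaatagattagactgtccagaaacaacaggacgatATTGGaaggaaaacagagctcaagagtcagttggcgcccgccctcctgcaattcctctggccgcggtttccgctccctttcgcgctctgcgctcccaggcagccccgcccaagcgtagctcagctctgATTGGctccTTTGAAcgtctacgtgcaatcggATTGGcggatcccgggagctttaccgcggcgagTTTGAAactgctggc
Ube2c: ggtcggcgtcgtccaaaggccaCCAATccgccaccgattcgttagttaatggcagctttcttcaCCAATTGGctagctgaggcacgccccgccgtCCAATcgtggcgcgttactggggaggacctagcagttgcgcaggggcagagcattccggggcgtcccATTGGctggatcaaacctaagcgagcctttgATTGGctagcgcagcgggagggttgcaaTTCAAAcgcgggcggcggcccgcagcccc
Cdc20: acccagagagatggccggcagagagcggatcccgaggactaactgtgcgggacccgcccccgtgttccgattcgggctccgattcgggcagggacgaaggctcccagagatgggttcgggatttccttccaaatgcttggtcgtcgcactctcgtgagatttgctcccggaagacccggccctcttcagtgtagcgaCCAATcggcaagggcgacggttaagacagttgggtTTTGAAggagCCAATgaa
Kif11: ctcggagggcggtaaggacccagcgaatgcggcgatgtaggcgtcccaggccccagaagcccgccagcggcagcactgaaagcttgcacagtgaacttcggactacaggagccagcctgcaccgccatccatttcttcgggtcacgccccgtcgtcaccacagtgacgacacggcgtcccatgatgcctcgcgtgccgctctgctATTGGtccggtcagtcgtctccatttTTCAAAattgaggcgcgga
Cenpt: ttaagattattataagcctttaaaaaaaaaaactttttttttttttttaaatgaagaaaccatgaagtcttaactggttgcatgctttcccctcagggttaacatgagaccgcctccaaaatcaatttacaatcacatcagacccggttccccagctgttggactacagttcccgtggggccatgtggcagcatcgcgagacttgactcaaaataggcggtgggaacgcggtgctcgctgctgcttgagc
Kif16b: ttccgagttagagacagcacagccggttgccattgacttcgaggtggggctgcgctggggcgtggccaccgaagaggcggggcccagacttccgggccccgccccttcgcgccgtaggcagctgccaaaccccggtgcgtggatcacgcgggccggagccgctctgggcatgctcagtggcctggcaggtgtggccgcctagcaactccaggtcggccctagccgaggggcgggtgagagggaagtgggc
Nuf2: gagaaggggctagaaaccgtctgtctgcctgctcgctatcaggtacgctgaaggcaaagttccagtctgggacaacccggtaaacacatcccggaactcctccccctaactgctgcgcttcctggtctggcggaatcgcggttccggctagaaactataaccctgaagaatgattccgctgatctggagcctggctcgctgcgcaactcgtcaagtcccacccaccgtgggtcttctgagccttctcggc
The Cdc20 and Kif11 promoters each hold a CHR, centred at -15 and at -16 bases from the start, with a CCAAT upstream of it at -50.5 and at -42.5, read on the gene's strand in Cdc20 and on the opposite strand in Kif11. Mki67 holds 3 CCAAT boxes and 2 CHR matches in a row, and Ube2c holds 6 CCAAT matches, of which a facing pair overlaps.

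The CHR was found in 33 of 49 mitotic genes with a promoter, 67.3%, against 16.3% of 6755 genes with 5 FPKM. CCAAT was found in 73.5% of the mitotic genes and 43.7% of the 6755 genes, and both motifs together in 57.1% and 6.88%. Among 20 transport and other kinesins with a promoter, 4 held a CHR, 7 a CCAAT and 3 both. Of all 32851 promoters, 19.2% held a CHR, 37.4% a CCAAT and 2.26% an E2F element. Counted by gene, 6 of the 49 mitotic genes held an E2F element, 12.2%, against 5.18% of the 6755 genes. Inner kinetochore genes stood between: 5 of 14 held a CHR, 35.7%, whereas 28 of 35 other mitotic genes did, 80.0%, and CCAAT was similarly frequent in both, at 71.4% and 74.3%. Of the 5 inner kinetochore genes whose counting interval held 1, Cenpm and Cenpw held a CHR and Cenpc1, Cenpq and Cenpt did not. Cenpe and Ccnb1 held a CCAAT and no CHR match in this window, and Nuf2, Birc5 and Mad2l1 held neither; all 5 were past the threshold.

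Within the mitotic genes the motif hardly separated the ratios. The 31 mitotic genes with 5 FPKM and a CHR had a median log2 ratio of 0.44 and a range from 0.04 to 0.80. The 15 without a CHR had a median of 0.37 and a range from -0.0050 to 0.72, so the ranges overlapped almost wholly. CHR matches of mitotic genes had their median centre at -14.5 bases from the start, and CCAAT matches at -64.5.

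**Figure D4:**
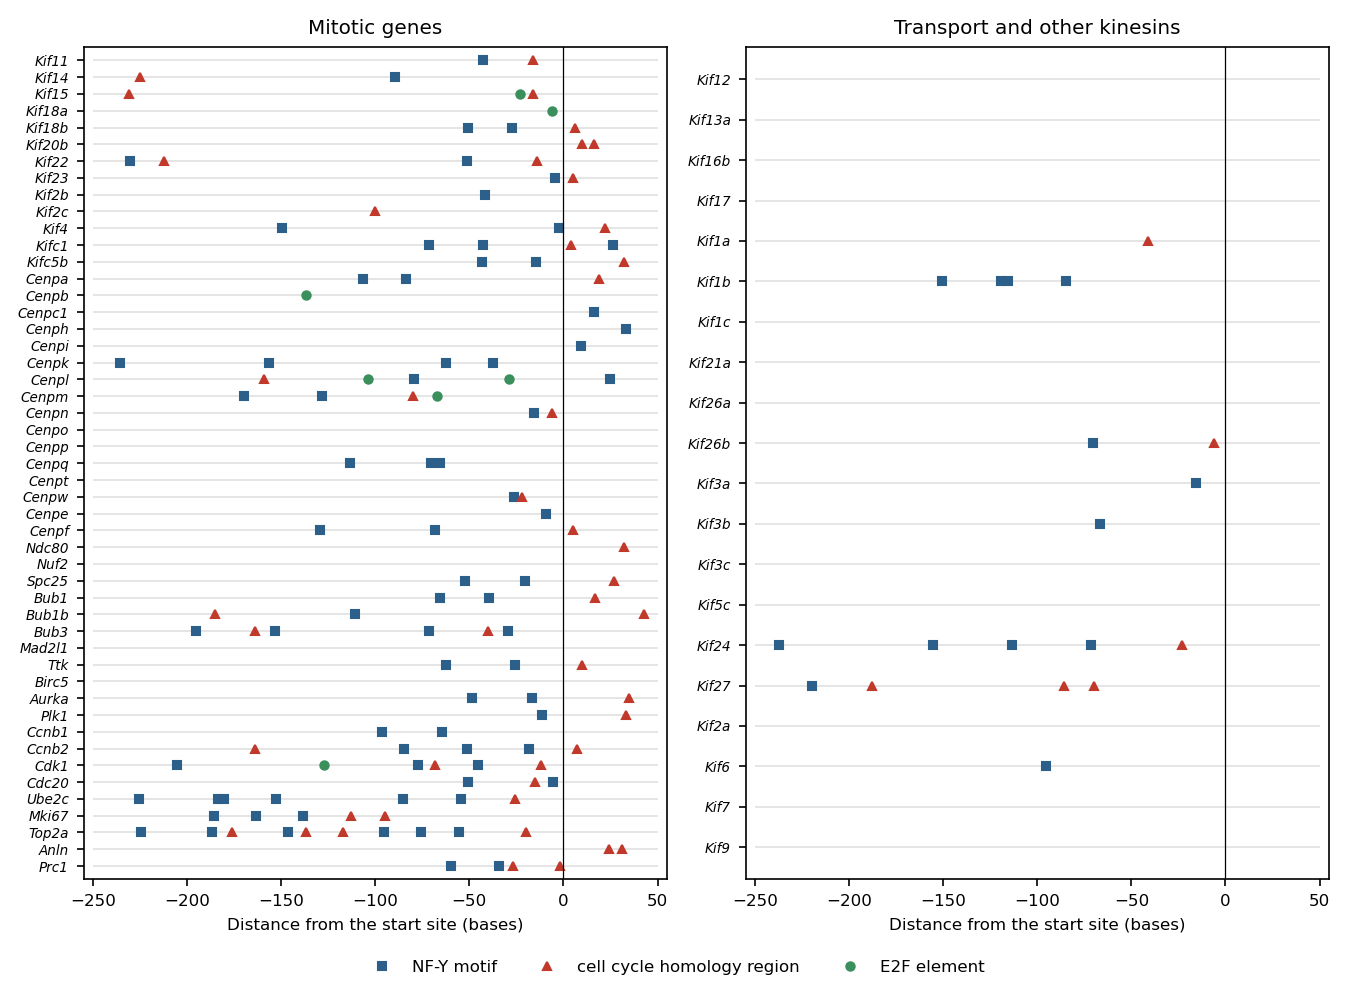
Positions of motif matches (horizontal axis, bases from the start site, negative upstream) in RefSeq promoters of mitotic genes and of transport and other kinesins, 1 line per gene, with squares for CCAAT (the NF-Y motif), triangles for the CHR and circles for E2F. Triangles are present in 33 of the 49 mitotic genes, with a median centre at -14.5, and in 4 of the 20 other kinesins.

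Other genes of the kinetochore and spindle, from lists outside the 84, were mostly higher in SATB1+ HSCs, 21 of 25 and 30 of 32. The 32 include Kifap3, a subunit of the transport motor of Kif3a and Kif3b. It was 1 of the 2 lower genes, at 8.80 FPKM in SATB1+ and 9.46 FPKM in SATB1- HSCs. Of 25 further kinetochore and centromere genes, all with 5 FPKM, 11 were past the threshold as higher in SATB1+ HSCs and 0 lower, with a median log2 ratio of 0.27. The most abundant were Cdca8, the borealin subunit of the passenger complex, at 127 FPKM in SATB1+ and 93.1 FPKM in SATB1- HSCs, Stra13, now called Cenpx, at 62.2 FPKM in SATB1+ and 65.9 FPKM in SATB1- HSCs, and Pmf1, a subunit of the Mis12 complex, at 54.0 FPKM in SATB1+ and 47.9 FPKM in SATB1- HSCs. Of 32 further spindle and mitotic regulators, 23 were past the threshold as higher and 1 was lower, with a median of 0.47. Ccna2, cyclin A, was at 127 FPKM in SATB1+ and 75.9 FPKM in SATB1- HSCs, Cks2, a Cdk1 accessory protein, at 168 FPKM in SATB1+ and 106 FPKM in SATB1- HSCs, and Smc4, a condensin subunit, at 115 FPKM in SATB1+ and 92.6 FPKM in SATB1- HSCs. The lower gene was Pttg1, which encodes securin, at 26.8 FPKM in SATB1+ and 34.0 FPKM in SATB1- HSCs; it was chosen after its values were seen. Of 22 DNA replication genes, which act a phase earlier, 21 had a higher and 1 a lower FPKM in SATB1+ HSCs. Most of these differences were small: 3 of the 22 were past the threshold as higher and 0 lower, with a median of 0.15. Over all 9308 genes, 11.1% were past the threshold as higher and 10.2% as lower, so 3 of 22 as higher is near the share of all genes. The 3, named after their values were seen, were the polymerase subunit Pola1, at 19.3 FPKM in SATB1+ and 9.35 FPKM in SATB1- HSCs, a ratio of 2.06 (1.94 to 2.19), Cdc45, at 39.0 FPKM in SATB1+ and 28.0 FPKM in SATB1- HSCs, and Gins1, at 22.1 FPKM in SATB1+ and 16.7 FPKM in SATB1- HSCs. The ratio of Pola1 was above that of every mitotic gene with 5 FPKM. The most abundant were the helicase subunits Mcm6, at 406 FPKM in SATB1+ and 389.5 FPKM in SATB1- HSCs, and Mcm3, at 176 FPKM in SATB1+ and 169 FPKM in SATB1- HSCs, and the sliding clamp Pcna, at 272 FPKM in SATB1+ and 225 FPKM in SATB1- HSCs. The difference between these lists was not tested.

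**Figure D5:**
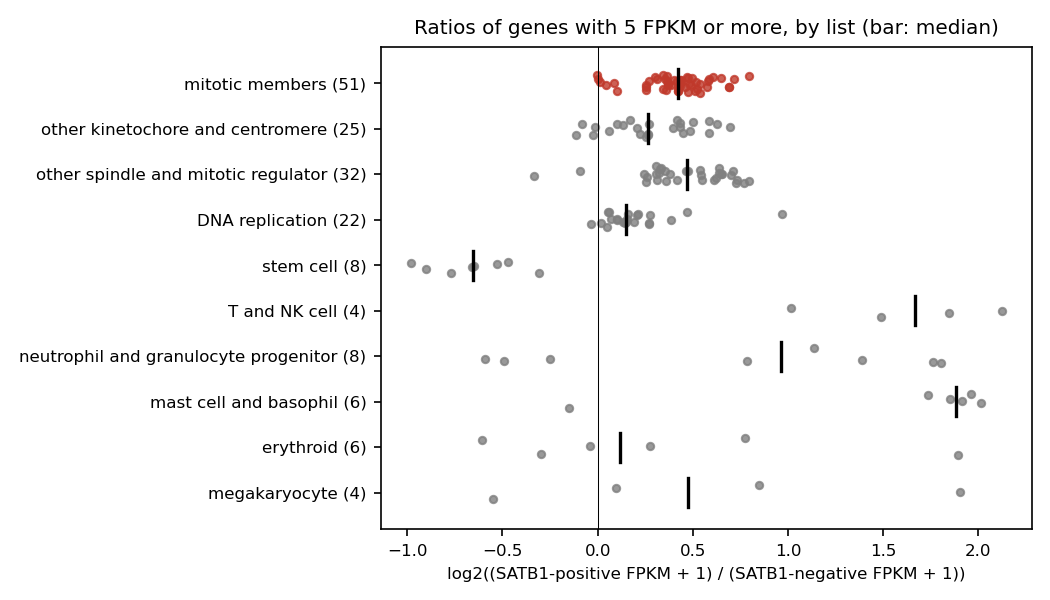
Log2 ratio of SATB1+ to SATB1- HSCs (horizontal axis) for genes that reached 5 FPKM in either cell group, 1 point per gene and a bar at each list's median, with the number of genes in brackets. The mitotic members lie between -0.0050 and 0.80, DNA replication genes have a median of 0.15, stem cell markers lie below 0 and T and NK cell markers above 0.

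Markers of several cell types also differed between the libraries, in both directions. The 8 stem cell markers were all lower in SATB1+ HSCs, with a summed level of 369 FPKM in SATB1+ and 581 FPKM in SATB1- HSCs. The 8 T and natural killer (NK) cell markers were all higher, with sums of 68.9 FPKM in SATB1+ and 21.2 FPKM in SATB1- HSCs and none at 0. Of 8 neutrophil and granulocyte progenitor markers, 5 were higher, with sums over the 8 of 3535 FPKM in SATB1+ and 1616 FPKM in SATB1- HSCs. Most of this came from Mpo, at 1528 FPKM in SATB1+ and 437 FPKM in SATB1- HSCs, and Elane, at 1081 FPKM in SATB1+ and 490 FPKM in SATB1- HSCs. The other 3 were lower, with ratios of 0.660 (0.607 to 0.718) for Camp, 0.706 (0.676 to 0.737) for Ltf and 0.841 (0.812 to 0.870) for Ngp. Of 6 mast cell and basophil markers, 5 were higher, with sums of 694 FPKM in SATB1+ and 308 FPKM in SATB1- HSCs. Erythroid markers were higher in 3 of 6, with sums of 406 FPKM in SATB1+ and 257 FPKM in SATB1- HSCs, most of it from Car1 at 349.9 FPKM in SATB1+ and 204 FPKM in SATB1- HSCs, and megakaryocyte markers in 3 of 5, with sums of 184 FPKM in SATB1+ and 152 FPKM in SATB1- HSCs. B cell markers were near 0 in both libraries, with sums of 1.85 FPKM in SATB1+ and 1.47 FPKM in SATB1- HSCs over 6 genes and Pax5 listed at 0 in SATB1+ HSCs. Past 2-fold as higher with 5 FPKM were 4 T and NK cell, 4 neutrophil and granulocyte progenitor and 5 mast cell and basophil markers. Of erythroid and megakaryocyte markers, 1 each was. Over all 9308 genes the share was 1.31%. The part of any of these cell types in the level of the mitotic genes was not tested.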

How the data were processed

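RNA of 1 library per group was sequenced after miRNeasy extraction and SMARTer Stranded RNA-Seq library preparation, per the labels' protocols. The authors deposited 1 FPKM value for each gene symbol, named so in the header of either file. Cufflinks 2.2.1, SAMtools 0.1.19, TopHat2 2.0.13 and Bowtie2 2.2.3, with the build mm10, are named per the submitters' processing notes, without their order. The sources used here do not give the annotation, filters or strand setting. Such FPKM values divide fragments between overlapping or similar genes by a model, so those genes are less certain. Of 23235 rows, 25 whose symbols a spreadsheet had turned into dates or serial numbers were left out.

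Ratios were log2((SATB1+ FPKM + 1)/(SATB1- FPKM + 1)), which understate differences of genes near 1 FPKM. Depth was estimated from single-exon, single-transcript genes of GENCODE M21, whose low FPKM values step by the worth of 1 fragment. With a length offset of 205 bases, 62.7% of 209 values in SATB1+ and 60.9% of 174 in SATB1- HSCs were within 0.05 of a whole number of fragments, against 10% at a random depth; the depth was chosen for this share. Fragments used the shortest RefSeq-linked transcript, found for all 84 genes, and intervals are exact (Clopper-Pearson, 95%) on the split of fragments, computed with scipy 1.17.1. The procedure was tested on simulated data. Every gene of the rule was accounted for. The kinetochore, spindle and replication lists gave their 3 most abundant genes, and others named after their values were seen. The cell type lists gave counts and sums, and values of few single genes, so most of their genes past 2-fold are not named. The members and lists were chosen with earlier results of these data known. Listed genes were matched also by older symbols in RefSeq. Alternatives were other pseudocounts, scalings, filters, a 1.5-fold threshold and a shorter promoter window. Nothing in the labels says that the libraries came from separate animals.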

Additional observations from a re-analysis of the deposited data

How the results depend on the processing

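Scaling by the sum, by the median ratio or by the upper quartile multiplied the SATB1+ values by 0.996 to 1.002 and left the counts for every group of genes within 1.5 times; Cenpt alone of 58 genes changed sign, under the upper quartile. The count of mitotic genes past the threshold as higher was 34 to 40 under other pseudocounts, scalings and minimum levels. At a 1.5-fold threshold it was 7, all outside the inner kinetochore (7), with 0 for mitotic kinesins, 0 for inner kinetochore genes and 0 lower among non-mitotic kinesins. With a pseudocount of 5, 5 mitotic kinesins passed, their median log2 ratio was 0.32, that of mitotic genes outside the inner kinetochore was 0.41, and 0 non-mitotic kinesins were lower. With a minimum of 1 FPKM the mitotic kinesin median was 0.37, and with none 0.36. Under either, 2 transport kinesins were higher and 2 lower. Of transport and other kinesins, 3 were higher and 4 lower with a median of 0.011. The transport median with no minimum was 0.023. Shares of all genes past the threshold were not computed at these minimum levels. A pair of alternatives was chosen after seeing the data: taking off the median of the length class gave medians of 0.058 for transport kinesins and 0.015 for transport and other kinesins, and leaving out genes that overlap others or share over 20% of their 50-base words left 27 mitotic genes and 5 mitotic kinesins higher and 0 non-mitotic kinesins lower, since fewer genes were counted. In the window from 150 bases before the start, 35.7% of genes with 5 FPKM held a CCAAT and 9.53% a CHR, since the window is shorter. The cause of the other shifts was not tested. No paired analysis was possible because each group has 1 library, and for the same reason no replicate could be left out. Depth limits the genes under 5 FPKM, which include 22 of the 27 non-mitotic kinesins.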

Other observations

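Transcription factors known to act at the CHR and its neighbouring elements were also measured; they belong to the list of spindle and mitotic regulators and were chosen after their values were seen. Mybl2, the B-Myb subunit that turns the MuvB complex into an activator, was at 22.9 FPKM in SATB1+ and 14.6 FPKM in SATB1- HSCs, a ratio of 1.56 (1.47 to 1.67), and Foxm1, which joins that complex before mitosis, at 21.8 FPKM in SATB1+ and 15.5 FPKM in SATB1- HSCs, a ratio of 1.41 (1.33 to 1.49). Lin54, the subunit that contacts the CHR, was at 16.8 FPKM in SATB1+ and 14.0 FPKM in SATB1- HSCs, a ratio of 1.19 (1.11 to 1.28), and Lin9 at 14.5 FPKM in SATB1+ and 11.4 FPKM in SATB1- HSCs, a ratio of 1.27 (1.17 to 1.38). Mybl2 and Foxm1 thus had larger ratios than Lin54 and Lin9, but the interval of Lin9 overlapped that of Foxm1. These differences were not tested.

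Condensin genes, chosen in the same way, were higher too. Ncapg was at 46.3 FPKM in SATB1+ and 26.2 FPKM in SATB1- HSCs, a ratio of 1.77 (1.69 to 1.85), and Ncaph at 47.4 FPKM in SATB1+ and 32.2 FPKM in SATB1- HSCs, also past the threshold. Ncapd2, another subunit of condensin I, had a ratio of 1.31 (1.27 to 1.35), and the subunits Smc2 and Smc4, shared by both condensins, had ratios of 1.24 (1.21 to 1.28) and 1.246 (1.22 to 1.28).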
